A study of Mus musculus with 10 samples.

Results

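The genes described here are 10 components of the VHL and hypoxia-inducible factor (HIF) pathway. They were chosen by name and not by a cut on measured values, though with earlier results of these data known. All 10 were among the 18603 genes of the deposited count table. They are Vhl, the HIF subunits Hif1a, Epas1 and Arnt, the oxygen-sensing hydroxylases Egln1, Egln2, Egln3 and Hif1an, and the HIF target genes Car9 and Bnip3. RNA was sequenced from 10 whole tumours that had grown from RENCA cells, a line of mouse kidney carcinoma, placed under the skin of female Balb/c mice and therefore outside the kidney, with 1 tumour from each mouse. The 5 tumours of the SLR14 group were injected with SLR14, a triphosphate-bearing stem-loop RNA that activates the cytosolic RNA sensor RIG-I, carried in lipid nanoparticles in 50 µL of PBS. The 5 tumours of the PBS group received PBS, so that the RNA and its lipid carrier cannot be told apart in the comparison. Every tumour was entered at 100 to 150 mm3, received 3 injections 48 h apart and was taken 24 h after the last injection. The labels give no age, genotype change or added allele for any mouse or for the cells, which are 1 line.

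In cells with enough oxygen, the EGLN prolyl hydroxylases modify the HIF alpha subunits, encoded by Hif1a and Epas1, and the VHL protein then binds them and brings them to a ubiquitin ligase for destruction. When oxygen is scarce the alpha subunits persist, pair with ARNT and switch on genes of glycolysis, angiogenesis, acid export and mitophagy. Loss of VHL is the founding lesion of most human clear cell kidney cancers, and this regulation of the alpha subunits acts on the protein and is not measured by RNA. The comparison asked whether the transcripts of the pathway differed in whole tumours after the RIG-I agonist.

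Total counts per tumour ranged from 17931895 in SLR14 tumour 2 to 39842608 in SLR14 tumour 3. Values are counts scaled to library size (CPM), corrected by edgeR's TMM factors, and a difference was called at a Benjamini-Hochberg adjusted p under 0.05 in edgeR's quasi-likelihood test over the 15883 genes that passed the count filter. By that rule 153 genes (0.963%) were called, 107 (0.674%) with more and 46 (0.29%) with less RNA in SLR14 tumours. The treatment itself was visible in the transcripts, since 17 of 20 interferon-stimulated genes rose, among them Irf7, a transcription factor of the interferon response, at 204 ± 77.7 CPM in SLR14 tumours and 37.0 ± 6.45 CPM in PBS tumours (SD, n = 5 each, log2 fold change 2.46, SE 0.23, edgeR adjusted p = 0.000396). Rsad2, an antiviral enzyme, averaged 26.4 ± 7.998 CPM in SLR14 tumours and 7.68 ± 0.949 CPM in PBS tumours (log2 fold change 1.78, SE 0.19, edgeR adjusted p = 0.000493). Markers of kidney epithelium chosen for the cell line were present, though Lhx1 reached only 0.533 CPM in any tumour. Their summed level was 2601 to 3143 CPM in SLR14 tumours and 2486 to 3093 CPM in PBS tumours. Krt8 alone averaged 1606 CPM in SLR14 and 1415 CPM in PBS tumours, so the sum says little about the scarcer markers. Of the 9, Epcam, an epithelial adhesion molecule, was called lower, at 0.617 ± 0.502 CPM in SLR14 tumours and 3.45 ± 1.62 CPM in PBS tumours (SD, n = 5 each, log2 fold change -2.42, edgeR adjusted p = 0.0324), and the other 8 were not called. Among those 8, Cdh16 was lower without overlap, at 187 to 294 CPM in SLR14 and 315 to 409 CPM in PBS tumours (log2 fold change -0.52, edgeR adjusted p = 0.0788). Ranges did not overlap for 2 of the 9, beside 3.24% of all tested genes. Neutrophil markers summed to 25.8 to 59.6 CPM in SLR14 and 14.3 to 22.9 CPM in PBS tumours, with 3 of 6 tested called higher, while 0 of 9 macrophage markers were called, with sums of 1801 to 2237 CPM in SLR14 and 1807 to 2274 CPM in PBS tumours. The part of these cells in the values below was not tested. On principal components PBS tumour 5 stood apart from the other 9 on the first and PBS tumour 3 and SLR14 tumour 2 lay at opposite ends of the second, so the main values that rest on them are also given without them.

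None of the 10 genes was called. All 10 passed the count filter, 0 had an unadjusted p under 0.05 in edgeR, DESeq2 or limma voom, against 1721 of all tested genes (10.8%) in edgeR, and in all 10 the CPM ranges of the groups overlapped, against 515 tested genes (3.24%) whose ranges did not. Of their log2 fold changes 6 were above 0 and 4 below, with a median of 0.01, beside a median of -0.01 and 48% above 0 over all genes tested. What differed was how much each gene varied from tumour to tumour over all 10 tumours of both groups: Egln2, Hif1a and Arnt spread from 1.22-fold to 1.52-fold between the lowest and the highest tumour, Vhl, Hif1an and Car9 from 1.70-fold to 2.67-fold, and Bnip3, Epas1, Egln3 and Egln1 from 3.31-fold to 5.50-fold. In whole tumours fewer cells of a type and less RNA per cell cannot be told apart, which applies to every value below.

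**Figure D1:**
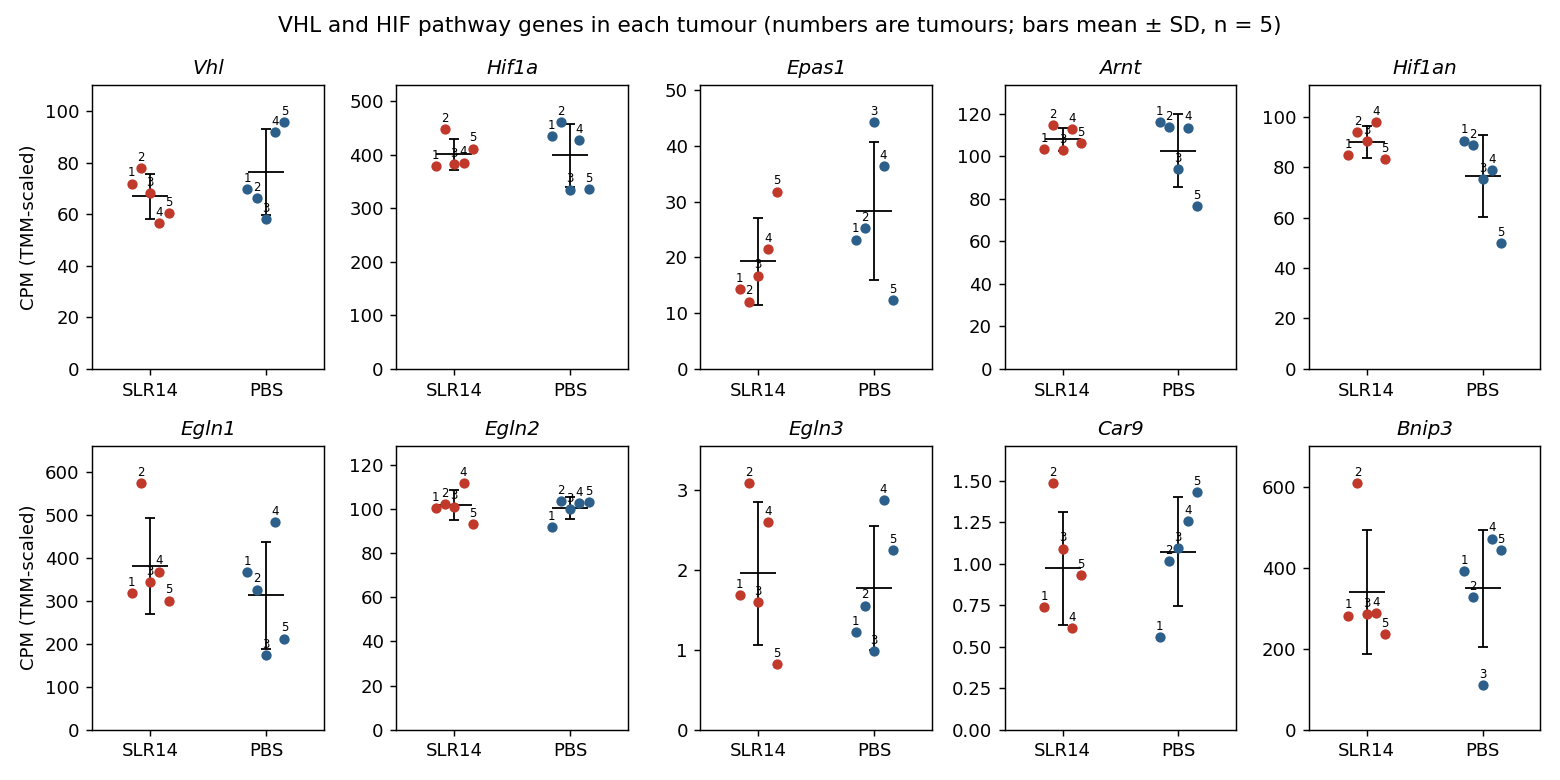
CPM of the 10 genes in each tumour, with SLR14 tumours left of PBS tumours; numbers mark the tumours and bars the mean ± SD of 5 tumours. The groups overlap in every panel, and SLR14 tumour 2 lies highest for Bnip3 (609 CPM) and Egln1 (575 CPM) while PBS tumour 3 lies lowest for both (111 and 174 CPM).

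Vhl, the substrate receptor of the ubiquitin ligase, had 71.8, 77.7, 68.1, 56.4 and 60.3 CPM in SLR14 tumours 1 to 5, against 69.7, 66.4, 58.1, 91.7 and 95.7 CPM in PBS tumours 1 to 5. The highest values were those of PBS tumours 4 and 5, and the other 3 PBS tumours lay within the range of the SLR14 tumours. The means were 66.9 ± 8.62 CPM in SLR14 and 76.3 ± 16.5 CPM in PBS tumours (SD, n = 5 each), with a log2 fold change of -0.19 (95% interval -0.50 to 0.12, edgeR adjusted p = 0.639). Without PBS tumour 5 the log2 fold change was -0.10.

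The 7 tested genes of the VHL ubiquitin ligase, namely Vhl itself, the elongins Elob and Eloc, Cul2, Rbx1, and Nedd8 and Cand1 that control cullin activity, gave 0 calls in either direction by edgeR, DESeq2 or limma voom, with 6 log2 fold changes below 0 and a median of -0.17. Cul2, the cullin scaffold that carries VHL, had the smallest p, at 51.3 ± 4.01 CPM in SLR14 tumours and 59.2 ± 4.97 CPM in PBS tumours (SD, n = 5 each, log2 fold change -0.21, edgeR adjusted p = 0.434). Nedd8, the ubiquitin-like protein attached to cullins, was at 63.0 ± 4.96 CPM in SLR14 and 75.5 ± 15.8 CPM in PBS tumours (log2 fold change -0.26, edgeR adjusted p = 0.487, and -0.13 without PBS tumour 5). For Cul2, Nedd8 and Vhl alike the highest library was PBS tumour 5. Without that tumour the median of the 7 was -0.03, with 4 below 0 and 3 above, so the lean to lower values rested on 1 library.

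Among the HIF subunits, Hif1a had 378, 447, 383, 385 and 411 CPM in SLR14 tumours 1 to 5, against 435, 461, 335, 427 and 335 CPM in PBS tumours 1 to 5. Its spread was small and the PBS tumours enclosed the SLR14 tumours at both ends. Means of 401 ± 28.8 CPM in SLR14 and 399 ± 59.4 CPM in PBS tumours (SD, n = 5 each) gave a log2 fold change of 0.01 (95% interval -0.24 to 0.25, edgeR adjusted p = 0.983). In GENCODE M21, 8.11% of the exon bases of Hif1a are shared with predicted genes on either strand. How much of its count comes from those bases is not known. Reads there could not be assigned, since no source used here gives the counting strand or annotation. Of the 2 predicted genes, Gm49321 lies on the same strand as Hif1a.

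Arnt, the partner that both alpha subunits need to bind DNA, had 103.2, 114.5, 103.0, 112.7 and 106.2 CPM in SLR14 tumours 1 to 5, against 116.1, 113.6, 93.8, 113.5 and 76.5 CPM in PBS tumours 1 to 5. The SLR14 tumours lay close together, and PBS tumour 5 was the lowest of the 10. The log2 fold change was 0.07 (95% interval -0.18 to 0.32, edgeR adjusted p = 0.821).

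Epas1, which encodes the HIF-2 alpha subunit and is known for its expression in endothelium, had 14.3, 12.1, 16.7, 21.5 and 31.8 CPM in SLR14 tumours 1 to 5, against 23.2, 25.3, 44.3, 36.4 and 12.3 CPM in PBS tumours 1 to 5. PBS tumours 3 and 4 exceeded every SLR14 tumour, while PBS tumour 5 was as low as the lowest SLR14 tumour. The means were 19.3 ± 7.82 CPM in SLR14 and 28.3 ± 12.4 CPM in PBS tumours (SD, n = 5 each, log2 fold change -0.55, SE 0.31, 95% interval -1.22 to 0.13, edgeR adjusted p = 0.553). This was the largest difference among the 10 genes in edgeR and still lay inside its error. The log2 fold change ranged from -0.81 without SLR14 tumour 5 to -0.33 without PBS tumour 3, and the adjusted p over 21 alternatives from 0.185 to 0.722.

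The 3 tumours highest in Epas1 were also the 3 highest in summed endothelial markers, but the order below them differed. The summed level of 14 endothelial markers, such as Pecam1 and Cdh5, was 245, 235, 234, 254 and 299 CPM in SLR14 tumours 1 to 5, against 201, 226, 339, 309 and 192 CPM in PBS tumours 1 to 5. PBS tumour 3, PBS tumour 4 and SLR14 tumour 5 were the 3 highest for the marker sum and for Epas1 alike. PBS tumours 1 and 2 exceeded SLR14 tumours 1 to 3 in Epas1 but lay below them in the marker sum. None of the 14 markers was called, none was at 0, and Pecam1 averaged 38.4 ± 7.33 CPM in SLR14 and 43.2 ± 11.7 CPM in PBS tumours (SD, n = 5 each). Fibroblast markers summed to 454 to 1522 CPM in SLR14 and 828.8 to 3340 CPM in PBS tumours, again highest in PBS tumours 3 and 4, with Fap, an enzyme on activated fibroblasts, called lower (0.863 ± 0.317 CPM in SLR14 and 2.89 ± 0.736 CPM in PBS tumours, log2 fold change -1.74, edgeR adjusted p = 0.0126). Pericyte markers summed to 204 to 263 CPM in SLR14 and 211 to 379 CPM in PBS tumours, also highest in PBS tumours 3 and 4. Of 9 pericyte markers Rgs5, a regulator of G-protein signalling in vessel walls, was called lower at 41.5 ± 8.24 CPM in SLR14 and 80.6 ± 6.20 CPM in PBS tumours (log2 fold change -0.96, edgeR adjusted p = 0.00315). The other 8 were not called. Of the 9 log2 fold changes 6 were below 0 and 3 above, the highest that of Myh11 (0.75, edgeR adjusted p = 0.334). The part of these cell types in the Epas1 values was not tested.

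Over the 10 tumours the genes whose log2(CPM + 1) was most like that of Epas1, among 10824 genes with a mean of at least 5 CPM, were Lama4 (Pearson r = 0.957, Spearman rho = 0.927), Dchs1 (r = 0.954, rho = 0.952) and Wtip (r = 0.948, rho = 0.964). Lama4 encodes a laminin chain of vessel basement membranes and Dchs1 a large cadherin. They were picked as the highest of many and are given as a description, with no p.

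Per kilobase of exon, the only scale on which levels of different genes are set side by side here, Hif1a averaged 68.0 CPM per kb in SLR14 and 67.6 CPM per kb in PBS tumours, against 3.45 and 5.06 CPM per kb for Epas1. The ratio of Hif1a to Epas1 was 25.1, 35.1, 21.7, 17.02 and 12.3 in SLR14 tumours 1 to 5, against 17.8, 17.3, 7.16, 11.1 and 25.9 in PBS tumours 1 to 5. Hif1a exceeded Epas1 at least 7.16-fold per kb in every tumour, and the ratios of the groups overlapped. In the full order of levels over tumours Bnip3 stood first, at 150 ± 67.2 CPM per kb in SLR14 and 154 ± 63.6 CPM per kb in PBS tumours, followed by Egln1, Hif1a, Egln2, Vhl, Arnt and Hif1an, Epas1, Egln3 and Car9. Ranges over the 10 tumours overlapped between Bnip3 and Egln1, between Egln1 and Hif1a, between Arnt and Hif1an, between Hif1an and Epas1, and between Egln3 and Car9. The other neighbours in that order did not overlap on this scale. With the length of the longest single transcript in place of all exons, Hif1a averaged 84.6, Egln2 47.9 and Arnt 24.3 CPM per kb over the 10 tumours. The length of Arnt is 8007 bases over all exons and 4325 in its longest transcript, while that of Vhl is 2997 and 2792. The separation of Vhl from Arnt therefore depends on the length used.

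**Figure D2:**
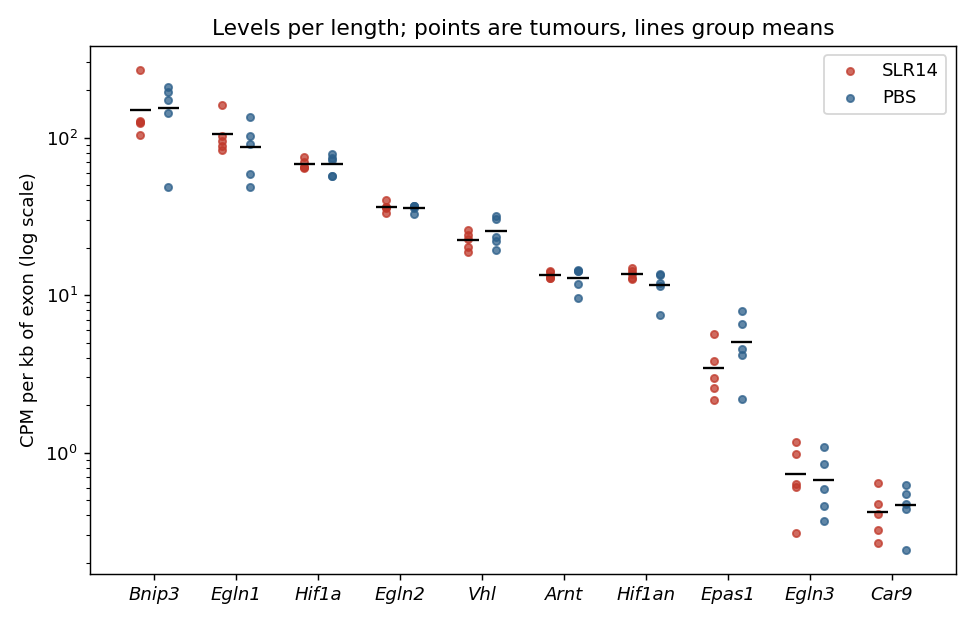
CPM per kb of exon, on a log axis, for the 10 genes ordered by level; points are tumours and lines the group means, with SLR14 left of PBS for each gene. Bnip3, Egln1 and Hif1a form the top, Epas1 lies at 3.45 and 5.06 CPM per kb in SLR14 and PBS tumours, and Egln3 and Car9 lie below 1.17 CPM per kb in every tumour.

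Of the 10 tested genes on a list of bHLH-PAS transcription factors, the protein family that holds the HIF subunits, 0 were called by edgeR, 0 of them at an unadjusted p under 0.05, and the median log2 fold change was 0.04. Sim2, a relative of the HIF alpha subunits, was at 30.3 ± 5.54 CPM in SLR14 and 24.8 ± 3.52 CPM in PBS tumours (SD, n = 5 each, log2 fold change 0.29, edgeR adjusted p = 0.464, and 0.18 without SLR14 tumour 4). Hif3a was not analysed here. Of 18 cofactors and stability factors of the alpha subunits 0 were called by edgeR, 2 at an unadjusted p under 0.05, with a median of 0.04. The smallest p was that of Cited2, which competes with HIF-1 for the coactivator p300, at 194, 204, 181, 174 and 167 CPM in SLR14 tumours 1 to 5, against 151, 145, 117, 171 and 128 CPM in PBS tumours 1 to 5. Only PBS tumour 4 reached into the SLR14 range, and the difference did not pass the adjustment (log2 fold change 0.37, SE 0.11, edgeR adjusted p = 0.198). Siah2, a ubiquitin ligase that acts on the prolyl hydroxylases, was at 59.5 ± 6.14 CPM in SLR14 and 50.2 ± 5.66 CPM in PBS tumours (log2 fold change 0.24, edgeR adjusted p = 0.418).

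Among the hydroxylases, Egln1 encodes the main prolyl hydroxylase that marks HIF alpha in normal oxygen and is itself a HIF target. It had 318, 575, 344, 368 and 300.5 CPM in SLR14 tumours 1 to 5, against 367, 326, 174, 484 and 212 CPM in PBS tumours 1 to 5. SLR14 tumour 2 stood far above the other SLR14 tumours, and PBS tumour 3 was the lowest. The log2 fold change was 0.29 (SE 0.26, 95% interval -0.27 to 0.84, edgeR adjusted p = 0.689), 0.09 without SLR14 tumour 2, 0.50 without PBS tumour 4 and -0.03 without both PBS tumour 5 and SLR14 tumour 2.

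Egln2, a prolyl hydroxylase that does not depend on hypoxia for its expression, had 100.2, 102, 101, 112 and 93.2 CPM in SLR14 tumours 1 to 5, against 91.7, 104, 100.0, 103 and 103 CPM in PBS tumours 1 to 5. It was the steadiest of the 10 genes, with a 1.22-fold range over all tumours and a log2 fold change of 0.02 (SE 0.08, 95% interval -0.16 to 0.20, edgeR adjusted p = 0.936). That interval was the narrowest among the 10 genes.

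Egln3, the prolyl hydroxylase known for the strongest induction by hypoxia, was near the floor of detection, with 26 to 96 counts per tumour. It had 1.68, 3.10, 1.599, 2.60 and 0.826 CPM in SLR14 tumours 1 to 5, against 1.22, 1.56, 0.980, 2.87 and 2.25 CPM in PBS tumours 1 to 5. The highest tumour was again SLR14 tumour 2, and the ranges of the groups nearly coincided. At this depth the interval of the log2 fold change of 0.10 ran from -0.69 to 0.89 (edgeR adjusted p = 0.927).

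Hif1an encodes the asparaginyl hydroxylase known as factor inhibiting HIF, which blocks the coactivator surface of the alpha subunits. It had 84.7, 93.8, 90.3, 97.9 and 83.1 CPM in SLR14 tumours 1 to 5, against 90.5, 88.6, 75.1, 78.7 and 49.7 CPM in PBS tumours 1 to 5. PBS tumour 5 was well below all others, and the other PBS tumours reached from 75.1 CPM into the SLR14 range. The log2 fold change of 0.23 (SE 0.14, 95% interval -0.07 to 0.53, edgeR adjusted p = 0.573) was 0.11 without PBS tumour 5.

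On a list of 2-oxoglutarate oxygenases, the enzyme class that holds the HIF hydroxylases, 23 genes were tested and 0 called by edgeR, 3 of them at an unadjusted p under 0.05, with a median log2 fold change of 0.08. Plod3, a collagen lysyl hydroxylase, had ranges that did not overlap, at 204 to 276 CPM in SLR14 and 145 to 202 CPM in PBS tumours, but did not pass the adjustment (log2 fold change 0.32, SE 0.12, edgeR adjusted p = 0.340). It was the 1 gene of the 23 without overlap, beside 3.24% of all tested genes. P4ha3, a collagen prolyl hydroxylase, averaged 0.972 ± 0.214 CPM in SLR14 and 1.87 ± 1.18 CPM in PBS tumours (log2 fold change -0.92, edgeR adjusted p = 0.421). Its 2 highest tumours, PBS 3 and PBS 4, were those with the most fibroblast marker RNA.

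**Figure D3:**
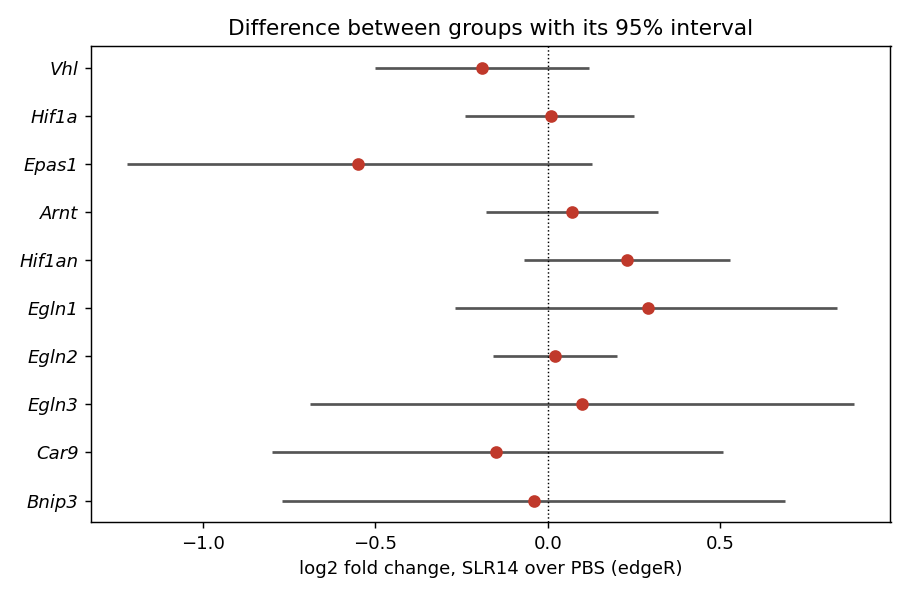
Log2 fold change of SLR14 over PBS tumours for the 10 genes, from edgeR, with 95% intervals as lines; 0 is the dotted line. Every interval spans 0, from the narrow one of Egln2 (-0.16 to 0.20) to the wide ones of Egln3 (-0.69 to 0.89) and Bnip3 (-0.77 to 0.69).

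The HIF-responsive genes of the set are Bnip3, Egln1, Egln3 and Car9, and their promoters are shown because HIF binds the core motifs ACGTG and GCGTG. The sequences are the 250 bases before the annotated start in RefSeq on GRCm38.p6, written 5′ to 3′ on the strand of the gene, with capitals marking each match to ACGTG or GCGTG on either strand; matches to the opposite strand read CACGT or CACGC.
Bnip3 (chr7:138909507-138909756, minus strand): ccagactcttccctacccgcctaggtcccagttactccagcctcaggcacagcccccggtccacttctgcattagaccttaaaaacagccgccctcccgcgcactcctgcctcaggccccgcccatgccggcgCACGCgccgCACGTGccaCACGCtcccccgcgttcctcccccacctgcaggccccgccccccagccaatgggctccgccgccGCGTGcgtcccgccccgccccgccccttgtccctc
Egln1 (chr8:124949255-124949504, minus strand): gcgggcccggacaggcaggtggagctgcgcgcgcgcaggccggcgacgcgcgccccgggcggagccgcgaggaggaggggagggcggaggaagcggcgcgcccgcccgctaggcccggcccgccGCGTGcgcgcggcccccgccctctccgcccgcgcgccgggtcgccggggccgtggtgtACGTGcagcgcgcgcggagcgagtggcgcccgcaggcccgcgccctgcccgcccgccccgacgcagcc
Egln3 (chr12:54203875-54204124, minus strand): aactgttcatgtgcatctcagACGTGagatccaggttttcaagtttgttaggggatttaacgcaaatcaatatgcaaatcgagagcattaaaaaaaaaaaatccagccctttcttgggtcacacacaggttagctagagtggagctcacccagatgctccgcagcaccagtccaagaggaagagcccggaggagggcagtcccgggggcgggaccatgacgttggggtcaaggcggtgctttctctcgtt
Car9 (chr4:43506776-43507025, plus strand): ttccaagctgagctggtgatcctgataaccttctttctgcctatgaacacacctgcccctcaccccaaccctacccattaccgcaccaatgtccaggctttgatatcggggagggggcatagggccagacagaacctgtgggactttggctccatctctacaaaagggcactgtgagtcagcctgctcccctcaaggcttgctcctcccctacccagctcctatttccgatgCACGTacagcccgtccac

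Bnip3 held 5 matches, of which the pair at 108 and 107 bases before the start overlap as CACGTG, read on both strands. Egln1 held 2, while Egln3 and Car9 held 1 each, that of Car9 starting 18 bases before the start. The motif is short and common: 38.6% of 32851 windows of this length in the table held at least 1 match, and so did 7 of the 9 genes of the set that the table lists. A match is a description of letters and not of a bound site. The build of these windows differs from that named for the deposited values, and only the gene symbol links them.

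Bnip3, a receptor that tags mitochondria for mitophagy, had 281, 609, 285, 287 and 236 CPM in SLR14 tumours 1 to 5, against 390.5, 327, 111, 472 and 444 CPM in PBS tumours 1 to 5. SLR14 tumour 2 held more than every other tumour and PBS tumour 3 less, a 5.50-fold range that enclosed all others. The means were 340 ± 152 CPM in SLR14 and 349 ± 144 CPM in PBS tumours (SD, n = 5 each, log2 fold change -0.04, 95% interval -0.77 to 0.69, edgeR adjusted p = 0.973). The log2 fold change ranged from -0.35 without SLR14 tumour 2 to 0.10 without PBS tumour 4. In GENCODE M21, 22.3% of the exon bases of Bnip3 are shared with the antisense gene Gm45507, and reads of the pair could not be told apart without the counting strand.

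Car9, the cell surface carbonic anhydrase used as a marker of VHL loss in human kidney cancer, had 12 to 43 counts per tumour. Its levels were 0.738, 1.49, 1.09, 0.611 and 0.933 CPM in SLR14 tumours 1 to 5, against 0.558, 1.02, 1.09, 1.26 and 1.43 CPM in PBS tumours 1 to 5. All 10 tumours thus lay near 1 CPM, and the highest was SLR14 tumour 2. The log2 fold change was -0.15 (SE 0.31, 95% interval -0.80 to 0.51, edgeR adjusted p = 0.864), an interval that at this depth leaves room for differences in either direction. With 1 tumour left out the log2 fold change ranged from -0.32 without SLR14 tumour 2 to -0.03 without PBS tumour 5 or without SLR14 tumour 4. In GENCODE M21, 9.29% of its exon bases are shared with the antisense gene Gm12454.

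The genes most like Car9 over the 10 tumours were Mgat1 (Pearson r = 0.904, Spearman rho = 0.83), Trmt1 (r = 0.867, rho = 0.915) and Hes6 (r = 0.832, rho = 0.83), none of them from the lists of HIF targets. Mgat1 starts the complex branches of N-glycans and Trmt1 methylates transfer RNA. As for Epas1, these are the highest of 10824 genes and carry no p, and with so few counts of Car9 counting error enters each r.

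The spread of single genes inside the groups was set beside that of all genes as the SD of log2(CPM + 1) within groups. It was 0.713 for Bnip3, which put it above 99.4% of tested genes and above 99.7% of the 4997 genes with a mean of at least 50 CPM. Epas1 (0.605) lay above 98.9%, Egln1 (0.498) above 97.7% and Egln3 (0.426) above 95.4% of tested genes. At the other end Egln2 (0.083) lay above only 2.76%, and Hif1a (0.171) and Arnt (0.188) lay below the median of 0.209 over all tested genes.

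Whether the responsive genes moved together was asked for 6 pairs over the 10 tumours, with permutation tests adjusted over the 6. Egln1 and Bnip3 had Pearson r = 0.73 (permutation p = 0.0174, adjusted 0.0521) and Spearman rho = 0.68 (permutation p = 0.0348, adjusted 0.0711). Egln3 and Bnip3 had r = 0.72 (permutation p = 0.0125, adjusted 0.0521) and rho = 0.75 (permutation p = 0.0184, adjusted 0.0711). Neither passed after adjustment, and nor did the other 4 pairs, whose r ran from 0.02 for Egln1 with Car9 to 0.61 for Egln1 with Egln3. Without SLR14 tumour 2 and PBS tumour 3, the tumours farthest from the median of Egln1, r for Egln1 with Bnip3 was 0.10, so that relation rests on those 2 tumours. Without SLR14 tumour 2 and PBS tumour 4, farthest for Egln3, r for Egln3 with Bnip3 was 0.54. After the group means were subtracted, r was 0.78 for Egln1 with Bnip3 and 0.73 for Egln3 with Bnip3 (exact permutation within groups, adjusted p = 0.0519 for each).

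A comparison chosen after these values were seen set Bnip3 beside the 44 other tested genes of a HIF target list, members left out. Of these, 41 had a positive Pearson r with Bnip3 and the median r was 0.73, beside a median of -0.03 over all tested genes. An r of at least 0.8 was reached by 17 of the 44, against 170 of 15882 tested genes (1.07%). Without PBS tumour 3 and SLR14 tumour 2, 10 of the 44 reached it, against 305 genes (1.92%), and the median r was 0.29 beside 0.01 over all genes. Both the count and the median were thus smaller without those 2 tumours.

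The genes that followed Bnip3 most closely kept to it without those tumours. Higd1a, a mitochondrial protein induced by hypoxia, had r = 0.98 and rho = 0.99 (permutation p = 1e-05, the smallest the permutations can give, and 3e-05, adjusted over the 44 to 0.00022 and 0.00088), and r = 0.94 without the 2 tumours. The glycolytic enzyme Pgk1 had r = 0.97 and rho = 0.95 (adjusted permutation p = 0.00033 and 0.000943), with r = 0.88 without them. Bnip3l, the closest relative of Bnip3 and likewise a mitophagy receptor, had r = 0.96 and rho = 0.95 (adjusted permutation p = 0.000636 and 0.000943), with r = 0.82 without them. Other targets followed Bnip3 less closely once those tumours were left out. Slc2a1, the glucose transporter, had r = 0.89 and rho = 0.73 over 10 tumours (adjusted permutation p = 0.00443 and 0.0546) and r = 0.54 without them. Vegfa, the main angiogenic growth factor, had r = 0.61 and rho = 0.55 (adjusted permutation p = 0.0932 and 0.171) and r = -0.03 without them.

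**Figure D4:**
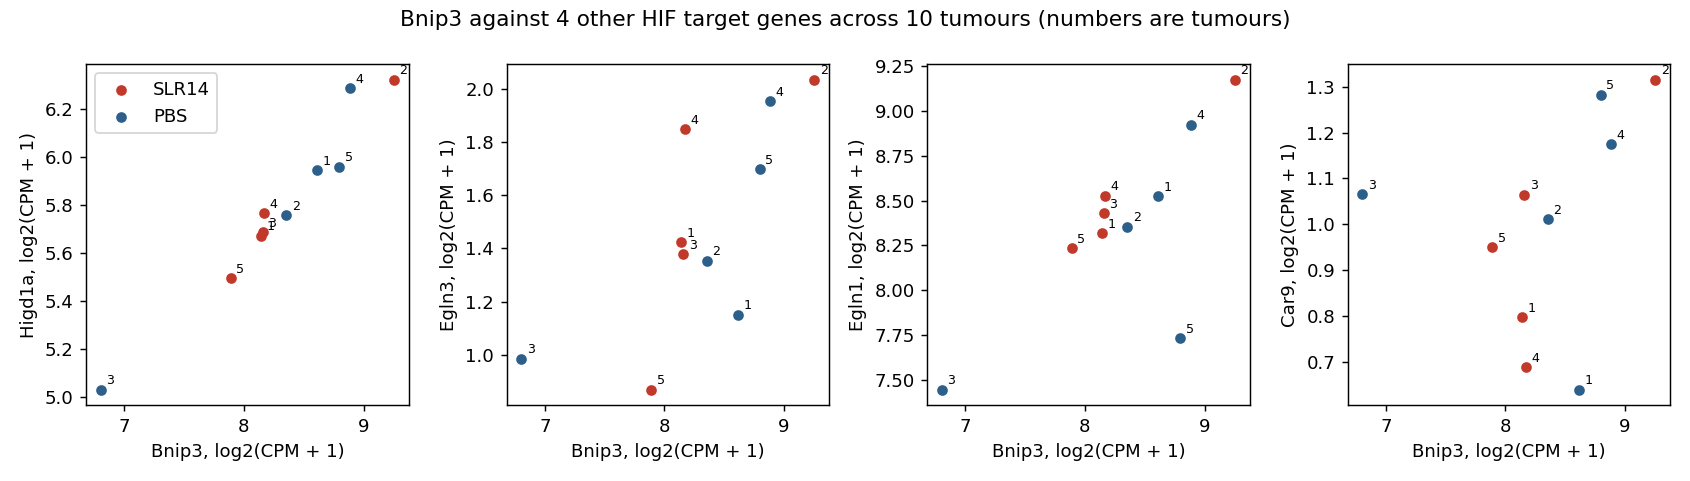
Log2(CPM + 1) of Higd1a, Egln3, Egln1 and Car9 against that of Bnip3 in the 10 tumours, with SLR14 and PBS tumours in separate colours and tumour numbers beside the points. Higd1a follows Bnip3 over the whole range (r = 0.98), Egln3 and Egln1 do so loosely (r = 0.72 and 0.73), and Car9 does not track it closely (r = 0.29).

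Levels of these targets varied by tumour more than by group. Higd1a had 50.0, 79.0, 50.5, 53.4 and 44.1 CPM in SLR14 tumours 1 to 5, against 60.6, 53.1, 31.7, 77.1 and 61.2 CPM in PBS tumours 1 to 5. Slc2a1 had 304, 804, 344, 342 and 290 CPM in SLR14 tumours 1 to 5, against 397, 391, 141, 574 and 276 CPM in PBS tumours 1 to 5. For both genes the order ran from PBS tumour 3 at the bottom to SLR14 tumour 2 at the top. Over the 44 genes the median deviation from the mean of the 10 tumours, on the log2(CPM + 1) scale, was -0.08, 0.53, -0.02, 0.10 and -0.15 in SLR14 tumours 1 to 5, against 0.05, 0.00, -0.57, 0.34 and -0.21 in PBS tumours 1 to 5. SLR14 tumour 2 was the highest of the 10 tumours for 31 of the 44 genes and PBS tumour 3 the lowest for 29. The middle one of these 5 tumour values was -0.02 for SLR14, in a range of -0.15 to 0.53, and 0.00 for PBS, in a range of -0.57 to 0.34.

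Other values moved with these tumours. Fibroblast markers summed to 454 CPM in SLR14 tumour 2, the lowest of all, and to 2505 CPM in PBS tumour 3, the second highest after PBS tumour 4 at 3340 CPM. Skeletal muscle markers summed to 2.68 CPM in SLR14 tumour 2 and 227 CPM in PBS tumour 3, the lowest and the highest of the 10 tumours. Endothelial markers summed to 339 CPM in PBS tumour 3, the highest of the 10 tumours. In SLR14 tumour 2 they summed to 235 CPM, which was not the lowest, since SLR14 tumour 3 and PBS tumours 1, 2 and 5 lay below it, down to 192 CPM. PBS tumour 4, second in median HIF target level at 0.34, did not follow the same order, with the highest fibroblast sum and the second highest endothelial sum (309 CPM), and SLR14 tumour 4, at a median of 0.10, had a muscle sum of 226 CPM. Mitochondrial transcripts took 0.762% of counts in SLR14 tumour 2 and 0.361% in PBS tumour 3, within ranges of 0.471 to 0.762% in SLR14 and 0.244 to 0.667% in PBS tumours. SLR14 tumour 2 also had the lowest total count. The part of these differences in the HIF target values was not tested.

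**Figure D5:**
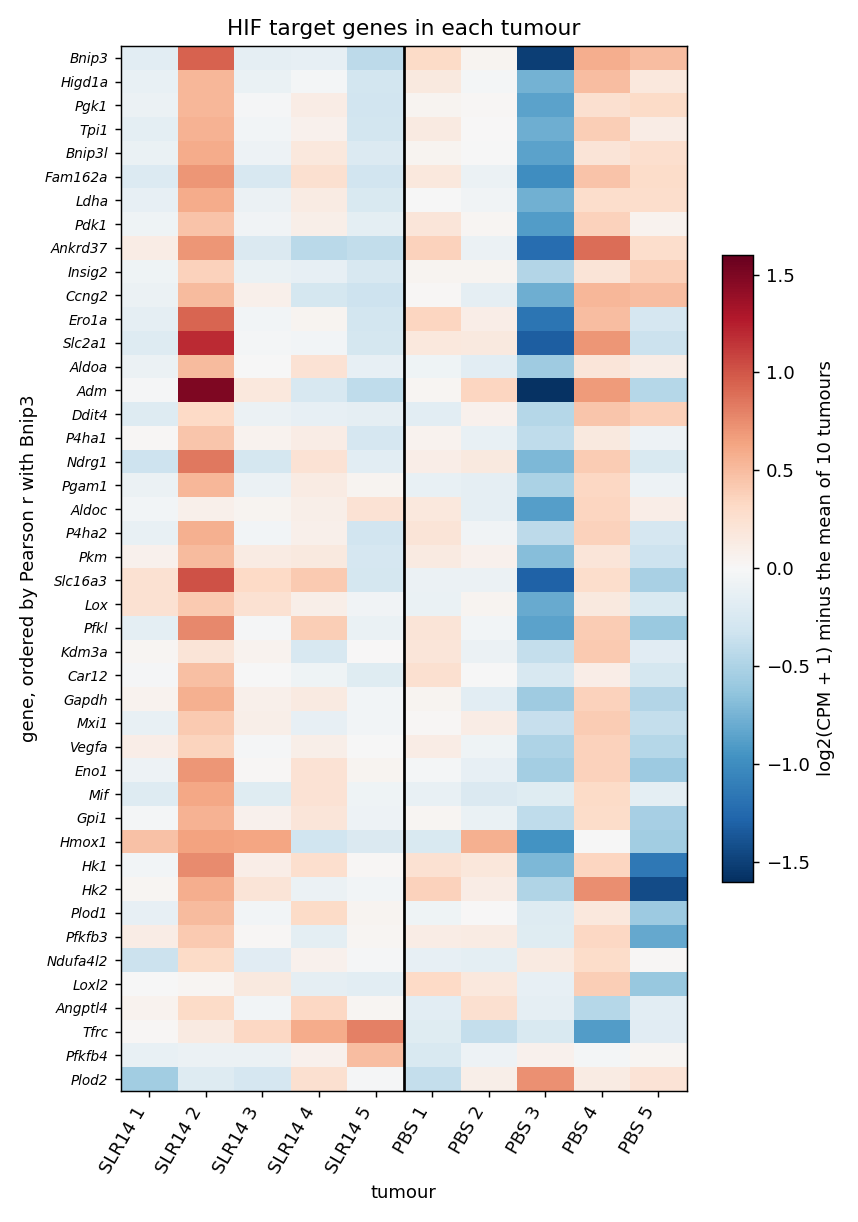
Deviation of log2(CPM + 1) from the mean of the 10 tumours for Bnip3 and 43 other HIF target genes, with the SLR14 tumours in the columns left of the PBS tumours and genes ordered by their Pearson r with Bnip3. SLR14 tumour 2 was the highest tumour for 30 of the 43, and PBS tumour 3 the lowest for 28.

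As to the treatment, 0 of 48 tested HIF target genes, Egln1, Egln3, Car9 and Bnip3 included, were called in either direction by edgeR, with 3 at an unadjusted p under 0.05, and 1 was called by DESeq2, which called 407 of 18584 genes (2.19%). Their median log2 fold change was 0.13 and 37 were above 0, beside 48% of all tested genes. Without SLR14 tumour 2 the median was -0.03, with 22 above 0, and without PBS tumour 3 it was 0.02, with 26 above 0. Among the enzymes of glycolysis on the list, Eno1, an enolase, was at 1239 ± 294 CPM in SLR14 and 970.3 ± 272 CPM in PBS tumours (SD, n = 5 each, log2 fold change 0.35, edgeR adjusted p = 0.538). The log2 fold changes were 0.36 for Hk1, a hexokinase, 0.32 for Pfkl, a phosphofructokinase, 0.30 for Gapdh and 0.27 for Gpi1, against 0.09 for Ldha, 0.06 for Pgk1 and 0.03 for Tpi1. None of these 8 was called, and all 8 were highest in SLR14 tumour 2. So were the glycolysis genes Aldoa, Pgam1, Pkm and Pfkfb3 of the same list. Others on it were not: Hk2 (418 CPM) and Aldoc (87.8 CPM) were highest in PBS tumour 4, and Pfkfb4 (18.4 CPM) in SLR14 tumour 5. Vegfa was at 261 ± 28.6 CPM in SLR14 and 229 ± 59.4 CPM in PBS tumours (log2 fold change 0.18, edgeR adjusted p = 0.676, and from 0.09 without PBS tumour 5 to 0.32 without PBS tumour 4).

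The target nearest the threshold was Tfrc, the transferrin receptor that brings iron into cells. It had 133, 145, 165, 200.03 and 230.5 CPM in SLR14 tumours 1 to 5, against 115, 101, 111, 70.3 and 116 CPM in PBS tumours 1 to 5. Every SLR14 tumour lay above every PBS tumour. Among the 48 tested HIF targets it was the 1 without overlap, beside 3.24% of all tested genes. The means of 175 ± 40.1 CPM in SLR14 and 103 ± 19.1 CPM in PBS tumours (SD, n = 5 each) gave a log2 fold change of 0.77 (SE 0.17) with an edgeR adjusted p of 0.0517, just short of the threshold. DESeq2 called it (log2 fold change 0.78, adjusted p = 0.00131), limma voom did not, and edgeR did without PBS tumour 5 (adjusted p = 0.0422) or without SLR14 tumour 2 (adjusted p = 0.0496). Tfrc had an r with Bnip3 of -0.22 and a rho of -0.31 over the 10 tumours (adjusted permutation p = 0.573 and 0.405), and r = -0.85 without PBS tumour 3 and SLR14 tumour 2. Tfrc is also known to respond to iron and to proliferation, and it is abundant on erythroid precursors, whose markers summed to 21.04 to 98.5 CPM in SLR14 and 54.5 to 173 CPM in PBS tumours. Their part in the Tfrc values was not tested.

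Slc16a3, the lactate exporter, was at 23.1 ± 7.94 CPM in SLR14 and 14.3 ± 5.55 CPM in PBS tumours (SD, n = 5 each, log2 fold change 0.68, SE 0.28, edgeR adjusted p = 0.418). Its ranges overlapped. Lox, a collagen crosslinking enzyme, was at 288 ± 35.4 CPM in SLR14 and 226 ± 52.7 CPM in PBS tumours (log2 fold change 0.35, edgeR adjusted p = 0.444, and 0.23 without PBS tumour 3). Of 11 tested genes linked to HIF-2 in kidney cancer, some of them on the HIF target list too, 0 were called by edgeR and 0 had an unadjusted p under 0.05, with a median of 0.06. Angptl4, a secreted inhibitor of lipoprotein lipase, was at 206 ± 24.8 CPM in SLR14 and 172 ± 32.0 CPM in PBS tumours (SD, n = 5 each, log2 fold change 0.26, edgeR adjusted p = 0.499).

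Of 16 mitophagy receptors and partners of BNIP3, Bnip3 included, 0 were called by edgeR and 1 had an unadjusted p under 0.05, with 12 log2 fold changes below 0 and a median of -0.09, which was 0.02 without PBS tumour 5. Bcl2, the survival protein that binds BNIP3, was at 71.9 ± 6.17 CPM in SLR14 and 86.0 ± 8.08 CPM in PBS tumours (SD, n = 5 each, log2 fold change -0.26, SE 0.10, edgeR adjusted p = 0.336). Gabarapl1, an autophagosome protein bound by mitophagy receptors, was at 94.2 ± 13.5 CPM in SLR14 and 109 ± 17.6 CPM in PBS tumours (log2 fold change -0.22, edgeR adjusted p = 0.564, and -0.14 without PBS tumour 4).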

How the data were processed

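Polyadenylated RNA of 10 whole RENCA tumours, 5 injected with SLR14 and 5 with PBS, was analysed from the values the authors deposited. Per the labels' protocols, RNA cleared of ribosomal transcripts was selected on oligo(dT) beads and copied from random primers. The submitters' processing notes name Trim Galore (0.6.7), STAR, the mm39 build and DESeq2 (1.36.0). How reads were assigned to genes, on which strand and with which annotation, is not given in the sources used here. One deposited table holds raw read counts per gene, and a second deposited table holds a normalized signal, in which the values show the same counts divided by 1 factor per sample.

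Groups were compared on the deposited counts with the quasi-likelihood test of edgeR (4.0.16, in R 4.3.3), with TMM scaling, filterByExpr (minimum count 10), all 10 tumours, no covariate and Benjamini-Hochberg adjustment at 0.05. It kept 15883 of 18603 genes. A row names no symbol for 74 genes, which hold 0.0295% of the counts and were kept because each has a gene identifier. The test was tested on simulated data over 15942 genes and recovered 84% of genes changed 2-fold and 98% of genes changed 4-fold in the simulated comparison of SLR14 with PBS. Of the calls made there 5.21% were false. Counts were drawn for each gene on its own, with no tumour set apart from the others. The shares are averages over randomly picked genes and do not give the recovery for the more variable ones, such as Bnip3 and Epas1. CPM values are scaled by TMM, levels per kb use the union of exons in GENCODE M21, and correlations use log2(CPM + 1) with 100000 permutations. No coordinates beside those of the RefSeq promoter windows are given, since the reference at hand (GRCm38) is not the build of the values. Total counts of 17931895 to 39842608 per tumour set the precision, and the intervals given are those of edgeR's model. No library was a duplicate: in 20 pairs of tumours of the same group, chi-square divided by its degrees of freedom was 7.4 to 128.

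The genes and lists were chosen with earlier results of these data known, as were the tests. Named genes are the 10 pathway genes, from each list the genes past the threshold (at most 8) or else the 3 with the smallest p, 2 interferon genes, and for Epas1 and Car9 the 3 genes most like each. The values of 2 named genes are not reported here, though counts and medians over lists include them. Higd1a, Bnip3l, Slc2a1, the glycolytic enzymes and the cell type markers named were chosen after their values were seen. Alternatives were upper-quartile factors, size factors of DESeq2 (1.42.0) and DESeq2 itself, voom of limma (3.58.1) with sample quality weights or none, limma on the authors' normalized signal with a pseudocount of 1 or 0.1, no filter, a CPM filter, a replicate block, and each tumour left out in turn. Leaving out PBS 5 with SLR14 2, or PBS 3 with SLR14 2 for correlations, was chosen after seeing the data. Hif3a and 11 other listed symbols were not analysed here.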

Additional observations from a re-analysis of the deposited data

Results flagged for a closer look

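In 8 of 80 gene and group sets of 5 tumours, 1 tumour stood apart by Dixon's test at the 95% level, where chance gives about 1 in 20. All 8 came from SLR14 tumour 2 or PBS tumour 5.

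SLR14 tumour 2 stood apart in 3 genes. Bnip3 was at 609 CPM there, against 236 to 287 CPM in the other SLR14 tumours, and Egln1 at 575 CPM, against 300.5 to 368 CPM. The autophagosome gene Gabarapl1 was at 118 CPM in that tumour, against 85.2 to 90.8 CPM in the others.

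PBS tumour 5 stood apart in 5 genes. It was low for the coactivator gene Ep300 (109 CPM, against 218 to 259 CPM in the other PBS tumours) and for Bcl2 (71.8 CPM, against 87.6 to 91.3 CPM). It was high for the mitophagy receptor gene Fundc1 (39.8 CPM, against 22.7 to 26.5 CPM) and for the succinate dehydrogenase subunits Sdhc (214 CPM, against 142 to 157 CPM) and Sdhd (100.3 CPM, against 53.5 to 60.9 CPM). This tumour also had the lowest mitochondrial share of counts (0.244%) and the highest summed erythroid marker level (173 CPM). The part of these in the 5 values was not tested.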

How the results depend on the processing

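None of the 10 pathway genes was called under any of 21 alternatives, and the smallest adjusted p among them was 0.185, for Epas1. The number of genes called in all, 153 in edgeR, was 407 with DESeq2, 349 with voom quality weights, 215 without PBS 5 and SLR14 2, and 69 to 194 with 1 tumour left out. Same-numbered tumours did not deviate together (r -0.25 to 0.138, and only 1 of 5 numbers matched best with itself), so the numbers do not pair them, and the replicate block gave 78 calls and none among the 10 genes. Of the HIF targets 1 gene, Tfrc, was called with DESeq2 size factors, DESeq2, voom quality weights, no filter and without PBS 5 and SLR14 2, and 0 to 1 with 1 tumour left out. Bcl2 was the 1 mitophagy gene called with voom quality weights (log2 fold change -0.30, adjusted p = 0.0379), and Car4 the 1 carbonic anhydrase called with DESeq2.

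Log2 fold changes near 0 changed sign. For Hif1a the value was -0.02 with upper-quartile factors, -0.10 with voom quality weights, -0.10 without PBS 5 and SLR14 2, and -0.05 to 0.07 with 1 tumour left out. For Arnt it was -0.04 with voom quality weights, -0.05 without PBS 5 and SLR14 2, and -0.02 to 0.12 with 1 tumour left out. For Egln1 it was -0.03 without PBS 5 and SLR14 2. For Egln2 it was -0.02 with upper-quartile factors and -0.01 to 0.05 with 1 tumour left out. For Egln3 it was -0.03 with voom, -0.03 without PBS 5 and SLR14 2, and -0.11 to 0.35 with 1 tumour left out. For Bnip3 it was 0.05 with voom, 0.04 with either pseudocount on the authors' values, 0.02 with the replicate block and -0.35 to 0.10 with 1 tumour left out. Among other genes, Fundc1 was at 0.00014 without PBS 5 and SLR14 2. Mgat1 was at -0.03 with upper-quartile factors and -0.0023 with the CPM filter, and -0.02 to 0.03 with 1 tumour left out. Trmt1 was at 0.00064 with DESeq2 size factors, 0.01 with DESeq2, 0.03 with voom quality weights, 0.01 with either pseudocount, 0.0021 with no filter and -0.04 to 0.03 with 1 tumour left out. Hes6 was at 0.03 with voom quality weights and -0.07 to 0.03 with 1 tumour left out. Without the tumours farthest on the x axis r was -0.31 for Egln1 with Car9 and -0.01 for Egln3 with Car9, and without PBS 3 and SLR14 2 it was -0.31 for Egln1 with Car9. The cause of these changes was not tested. Counts of 26 to 96 for Egln3 and 12 to 43 for Car9 limit what could be seen for those genes.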

Other observations

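Of 12 tested carbonic anhydrases and acid-base transporters, Car9 included, 0 were called by edgeR and 1 had an unadjusted p under 0.05, with a median log2 fold change of -0.03. Car2, a cytosolic carbonic anhydrase, was at 39.7 ± 6.30 CPM in SLR14 and 45.5 ± 5.87 CPM in PBS tumours (SD, n = 5 each, log2 fold change -0.19, edgeR adjusted p = 0.589, and -0.11 without SLR14 tumour 4). Car12, a membrane form known as a HIF target, was far more abundant than Car9, at 71.6 ± 14.3 CPM in SLR14 and 67.5 ± 11.05 CPM in PBS tumours (log2 fold change 0.08, edgeR adjusted p = 0.834). Car4, another membrane form, fell below the count filter, with 2 to 33 counts in SLR14 and 0 to 3 counts in PBS tumours, and was called by DESeq2 (log2 fold change 3.60, SE 0.97, adjusted p = 0.0139). When edgeR was run with no count filter, it did not call Car4, so the tools disagreed on this gene.

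Of 13 kidney cancer suppressor genes beside VHL 0 were called by edgeR or DESeq2, and 0 had an unadjusted p under 0.05 in either, with a median log2 fold change of -0.01. Sdhc, a succinate dehydrogenase subunit, was the 1 gene of the 13 whose ranges did not overlap, beside 3.24% of all tested genes. It was at 132 to 140.0 CPM in SLR14 and 142 to 214 CPM in PBS tumours (log2 fold change -0.22, edgeR adjusted p = 0.512, and -0.10 without PBS tumour 5). Fh1, fumarate hydratase, was at 101 ± 6.61 CPM in SLR14 and 113 ± 22.5 CPM in PBS tumours (SD, n = 5 each, log2 fold change -0.16, edgeR adjusted p = 0.641, and -0.05 without PBS tumour 5).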
